A study of Mus musculus with 9 samples.

Results

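The genes described here are the 37 genes of the mouse mitochondrial genome, taken as every gene that the deposited expression table places on chromosome MT, out of 54532 genes in the table. They are 13 protein-coding genes, 2 ribosomal RNA genes and 22 transfer RNA genes. Liver RNA of wild-type male C57BL/6J mice was measured in 9 libraries, 3 in each of 3 groups. The 326E livers came from mice on CDAA-HFD, a diet lacking choline, with amino acids in place of protein and rich in fat, used as a mouse model of steatohepatitis with fibrosis, and dosed with the compound 326E at 30 mg/kg for 6 weeks. The vehicle livers came from mice on the same diet given vehicle, and the chow livers from mice on normal chow given vehicle. The sample titles carry the letters MCD for all 3 groups, chow included, while the protocol names the diet CDAA-HFD, and the protocol was followed. Whether every library comes from an animal of its own is not in the labels, so the p-values measure the spread between these libraries, which may be technical in part.

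The mitochondrial genome is a small circle of DNA present in many copies per cell. Its 13 mRNAs encode core subunits of respiratory complexes I, III and IV and of the ATP synthase, its rRNAs and tRNAs serve the translation of those mRNAs inside the organelle, and every other respiratory subunit is encoded in the nucleus. Each strand is transcribed into a long precursor that is cut at the tRNAs. Most of the mature mRNAs, though not all, and the rRNAs then receive short poly(A) tails. Hepatocytes are rich in mitochondria. The libraries were made from RNA selected on oligo(dT) beads, so each value below is the level of RNA that this selection kept.

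Gene-assigned reads numbered 13275888 to 17058316 in a library, and values are FPKM, reads per kilobase of gene scaled to library size. The library size within the deposited FPKM was 0.828 to 0.860 times the assigned reads in chow libraries. It was 1.04 to 1.19 times in vehicle libraries and 1.01 to 1.15 times in 326E libraries. It was highest in vehicle replicate 2 and lowest in chow replicate 3. Chow thus stood apart from both other groups, and differences from chow in FPKM depend on this scaling. Gene levels are compared between libraries in FPKM unless reads are named. Tests were made with limma on log2(FPKM+1) over all 13737 genes that reached 0.5 FPKM in at least 3 libraries, and a gene was called at a Benjamini-Hochberg adjusted p under 0.05. Fold changes are log2 differences on that scale with their standard error after ±. The 12 hepatocyte markers checked each reached 0.5 FPKM in some library of every group. Their sums were 28070 to 39360 FPKM in 326E livers, 30570 to 45750 in vehicle livers and 46190 to 52710 in chow livers. The 6 markers of muscle and brown fat, other tissues rich in mitochondria, averaged under 0.5 FPKM in every group.

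Of the 37 genes, 31 passed the filter on low values, namely all 13 mRNAs, both rRNAs and 16 tRNAs. The 6 tRNAs that did not pass were mt-Tf, mt-Td and mt-Tk, with 0 reads in every library, and mt-Tv, mt-Ts1 and mt-Tt, with 1 or 2 reads over all 9 libraries. The 13 mRNAs took a mean of 6.77% of assigned reads in 326E libraries, 5.54% in vehicle libraries and 7.32% in chow libraries. Single libraries ranged from 5.91% to 7.23% with 326E, from 5.44% to 5.65% with vehicle and from 5.76% to 8.23% with chow. By this share of reads every 326E library was above every vehicle library. Chow replicate 2 lay below all 326E libraries and the other two chow libraries lay above them. As a share of summed FPKM, 326E and vehicle libraries overlapped. There 326E replicate 1 had 11.9%, below vehicle replicate 1 (12.4%) and vehicle replicate 2 (12.2%). In bulk tissue, fewer cells of a type and less RNA per cell cannot be told apart.

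Levels differed widely between the mRNAs of this genome. Averaged over the 9 libraries, 7 mRNAs had 3953 to 15451 FPKM (mt-Co1, mt-Cytb, mt-Nd2, mt-Nd1, mt-Nd4, mt-Nd5 and mt-Nd6), 5 had 97.9 to 524 FPKM (mt-Atp6, mt-Co3, mt-Co2, mt-Nd4l and mt-Nd3) and mt-Atp8 had 5.12 FPKM. The 7 most abundant held 98.1% to 99.1% of the mitochondrial mRNA reads of each library. The 5 of middle level are the 5 with a near-identical annotated pseudogene over almost their whole length in the nuclear genome. On chromosome 1, between 24611535 and 24616197 on the minus strand (GRCm38), 7 annotated pseudogenes follow one another in the order of the mitochondrial genes from mt-Co1 to mt-Nd4. Of 100-base stretches, 99.5% of mt-Co2, 99.5% of mt-Atp6, 99.9% of mt-Co3, 97.6% of mt-Nd3 and 98.5% of mt-Nd4l also occur in nuclear transcripts of GENCODE vM21. The share was 60.8% for mt-Nd4, 30.8% for mt-Co1, 3.19% for mt-Nd2 and 0% for mt-Nd1, mt-Nd5, mt-Nd6, mt-Cytb, mt-Atp8 and both rRNAs. Nuclear sequence outside annotated transcripts was not searched. Most of mt-Atp8 lies between mt-Co2 and mt-Atp6, and the bases between the pseudogenes of those genes were outside the search. How reads with more than 1 match were counted is not given in the sources used here, and the part of shared sequence in these levels was not tested.

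**Figure D1:**
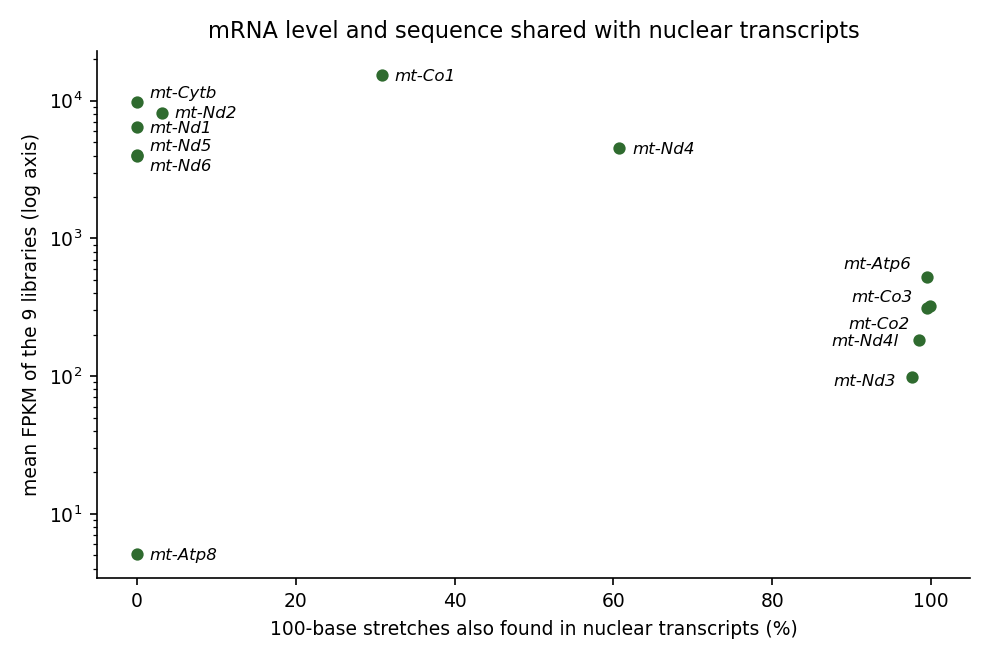
Mean FPKM over the 9 libraries (log axis) against the percentage of 100-base stretches that also occur in nuclear transcripts, 1 point for each of the 13 mRNAs. The 5 mRNAs above 97% shared sit between 97.9 and 524 FPKM. At 5.12 FPKM, mt-Atp8 stands alone, with no stretch in an annotated nuclear transcript. Other nuclear sequence was not searched.

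Pairs of sequence show how little separates the genomes. The first 60 bases of mt-Nd3 (chrM:9459-9518, plus strand) and of its copy Gm28438 (chr1:24613060-24613119, minus strand) differ at 1 base, T3C, and the stretch of mt-Co1 (chrM:6381-6440, plus strand) that faces the start of its copy Gm29216 (chr1:24616138-24616197, minus strand) differs at the bases in capitals, after which the rest of the copy is the same. All sequences are from GENCODE vM21 on GRCm38, 5′ to 3′, and positions are counted from 1 at the 5′ end of the mitochondrial gene.
mt-Nd3: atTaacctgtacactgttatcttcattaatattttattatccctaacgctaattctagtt
Gm28438: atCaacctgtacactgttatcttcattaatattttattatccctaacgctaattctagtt
mt-Co1: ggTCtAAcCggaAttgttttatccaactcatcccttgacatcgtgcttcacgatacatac
Gm29216: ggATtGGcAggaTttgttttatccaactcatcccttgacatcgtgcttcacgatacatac
In mt-Co1 the 6 differences are T1056A, C1057T, A1059G, A1060G, C1062A and A1066T. The other 5 copies, of mt-Nd4, mt-Nd4l, mt-Co3, mt-Atp6 and mt-Co2, did not differ from the mitochondrial gene at any base of the copy. The copies themselves were listed at 16.7 to 205 FPKM on average in vehicle livers, from Gm28438 to Gm10925. Reads of a mitochondrial gene and of its copy cannot be told apart where the letters are the same.

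The lowest mRNA, mt-Atp8, encodes a small subunit of the ATP synthase. It is 204 bases long (chrM:7766-7969, plus strand), and its last 43 bases, in capitals, are also the first bases of mt-Atp6.
mt-Atp8: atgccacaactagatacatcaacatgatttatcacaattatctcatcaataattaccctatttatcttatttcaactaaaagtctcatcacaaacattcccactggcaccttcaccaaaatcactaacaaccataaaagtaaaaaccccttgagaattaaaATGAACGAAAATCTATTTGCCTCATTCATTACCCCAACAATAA
It had 8 to 29 reads per library, the fewest of any mRNA. The library fragments selected were 370 to 420 bp, longer than the gene, and how reads over both genes were assigned is not given in the sources used here.

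The first question was what 326E changed in livers on the CDAA-HFD. None of the 13 mRNAs was called, while both rRNAs and 3 of 16 tRNAs were lower with 326E, and no mitochondrial gene was called higher. Among all 13737 genes tested, 11.5% were called in this comparison, 4.96% higher and 6.5% lower. The median log2 fold change was 0.33 over the 13 mRNAs, -1.03 over the 2 rRNAs and -0.37 over the 16 tRNAs, against -0.02 over all genes. For the mRNAs, limma called 0, with 3 at an unadjusted p under 0.05 (mt-Co2, mt-Nd4 and mt-Cytb), and voom on the reads read back from FPKM called 1, mt-Co2. The smallest adjusted p of an mRNA was 0.0721. With 326E, 11 of the 13 mRNAs had a positive difference, and 4 (mt-Co2, mt-Atp6, mt-Nd4 and mt-Cytb) were higher in every 326E library than in any vehicle library. The share of all genes that separate in this way was not counted, so this number has no background beside it.

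**Figure D2:**
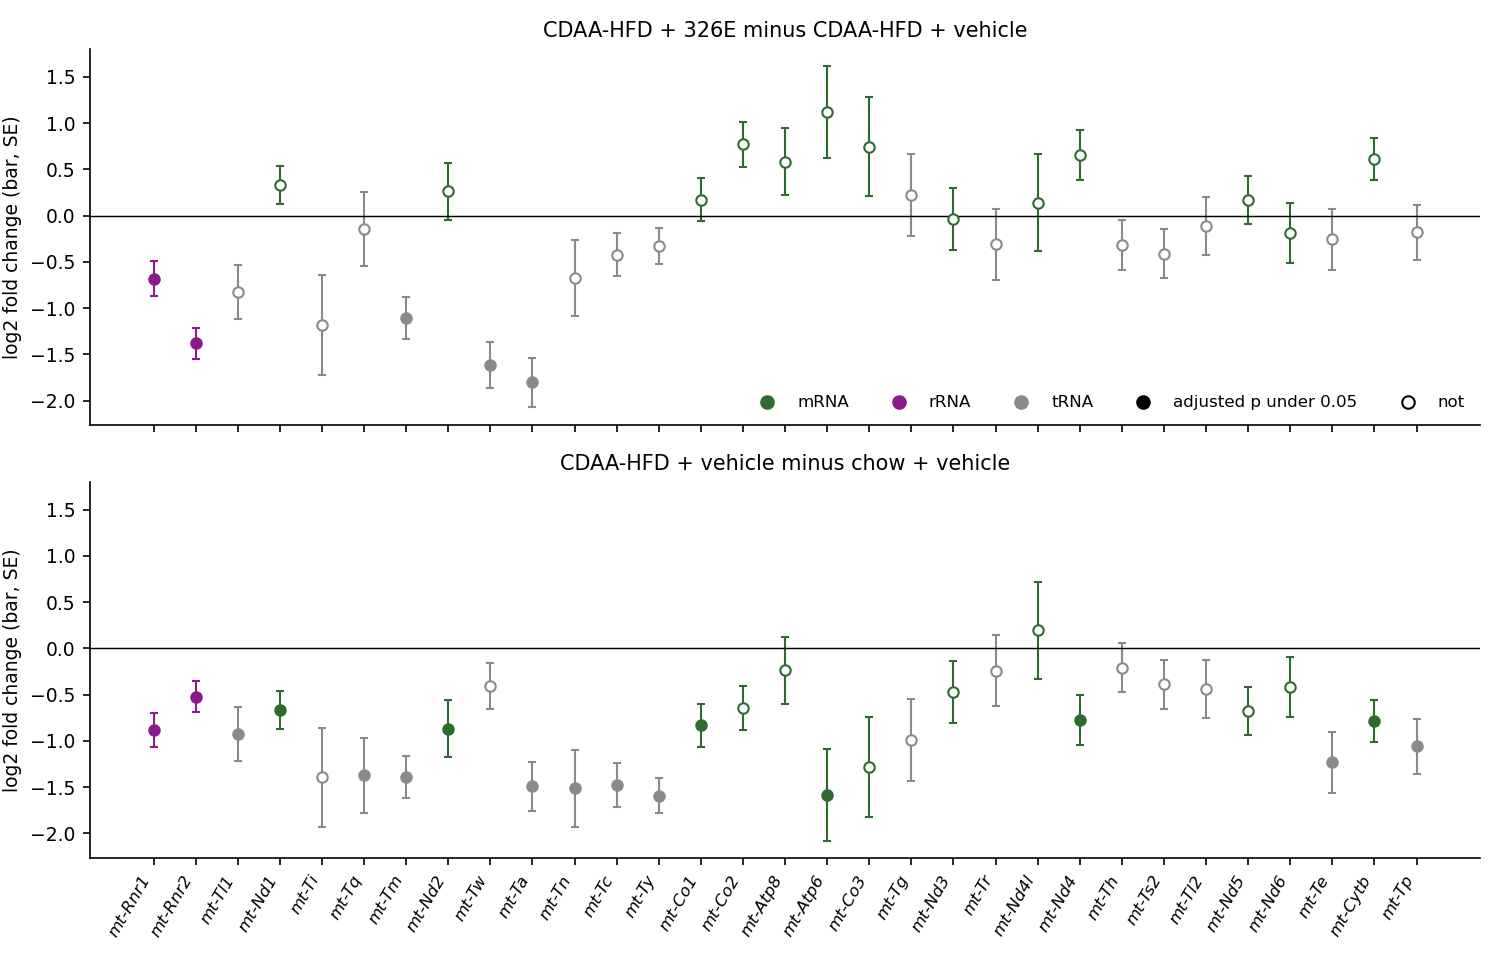
Log2 fold change (bars, standard error) of the 31 mitochondrial genes that passed the filter, in genome order, for 326E minus vehicle on CDAA-HFD (top) and vehicle on CDAA-HFD minus chow (bottom). Filled points passed an adjusted p of 0.05. In the top panel both rRNAs, mt-Tm, mt-Tw and mt-Ta are filled and below 0 and no mRNA is filled. In the bottom panel all 17 filled points are below 0.

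The second question was what the diet changed, vehicle against chow. All 17 mitochondrial genes called were lower on the diet, namely 6 of 13 mRNAs (mt-Nd1, mt-Nd2, mt-Nd4, mt-Co1, mt-Cytb and mt-Atp6), both rRNAs and 9 of 16 tRNAs. Of all genes tested 41.6% were called, 20.8% higher and 20.8% lower. The median log2 fold change was -0.68 for the mRNAs, -0.70 for the rRNAs and -1.15 for the tRNAs, against -0.04 over all genes. The mRNA calls lay close to the threshold, with adjusted p from 0.019 to 0.0475, and depended on the scaling of the libraries. Scaled to total assigned reads, 0 of 13 mRNAs were called, with a median of -0.28 where the median of all genes was 0.25, and all genes then split into 5074 higher and 961 lower against 2859 and 2862 as deposited. Leaving out chow replicate 1 or chow replicate 3 gave 0 mRNA calls, leaving out vehicle replicate 1, 2 or 3 gave 2, 1 and 3, and leaving out chow replicate 2 gave 9.

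The third comparison set 326E livers against chow livers. No mRNA was called, both rRNAs and 11 of 16 tRNAs were lower in 326E livers, and 26.8% of all genes were called, 14.4% higher and 12.5% lower. For the mRNAs limma called 0, with 1 at an unadjusted p under 0.05, and voom called 1, mt-Co1 in both cases. The median log2 fold change was -0.47 for mRNAs, -1.74 for rRNAs and -1.64 for tRNAs, against -0.02 over all genes. Scaled to total assigned reads, the medians were -0.11, -1.37 and -1.29 and that of all genes 0.24. All genes then split into 3953 higher and 594 lower, against 1974 and 1714 as deposited. This comparison shares the 326E libraries with the first and the chow libraries with the second.

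**Figure D3:**
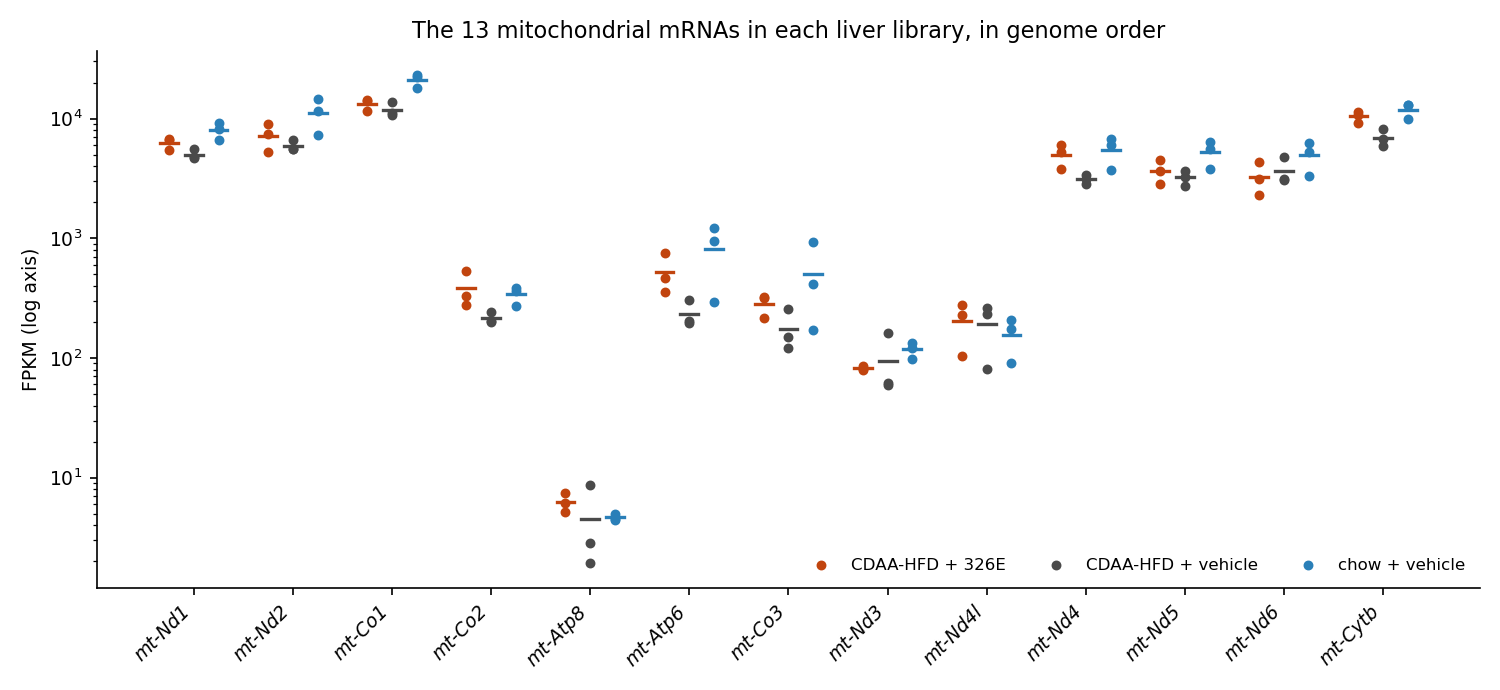
FPKM (log axis) of the 13 mitochondrial mRNAs in each library, in genome order. Points are libraries and lines are group means, with 326E on CDAA-HFD left, vehicle on CDAA-HFD in the middle and chow right. The 326E libraries lie above all vehicle libraries for mt-Co2, mt-Atp6, mt-Nd4 and mt-Cytb, and the 326E and vehicle ranges overlap for the other 9. On these deposited values both CDAA-HFD groups lie below all chow libraries for mt-Co1.

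Complex I, which takes electrons from NADH, has 7 subunits encoded here. The mRNA of mt-Nd1 (ENSMUSG00000064341, chrM:2751-3707, plus strand) stood at 5463, 6735 and 6678 FPKM in 326E livers, 4781, 4637 and 5571 FPKM in vehicle livers and 8143, 6639 and 9172 FPKM in chow livers. In FPKM the 326E and vehicle ranges overlapped, and every vehicle library was below every chow library. As a share of assigned reads, mt-Nd1 overlapped between vehicle and chow libraries. Its difference was 0.33 ± 0.21 for 326E against vehicle (adjusted p = 0.33) and -0.67 ± 0.21 for vehicle against chow (adjusted p = 0.0283). For mt-Nd2 (ENSMUSG00000064345, chrM:3914-4951, plus strand) the values were 5242, 7371 and 8997 FPKM with 326E, 6574, 5526 and 5552 FPKM with vehicle and 11497, 7286 and 14681 FPKM on chow. The lowest 326E library was below all vehicle libraries and the other two were above them. The 326E difference was 0.26 ± 0.31 (adjusted p = 0.622), and mt-Nd2 was lower on the diet by -0.87 ± 0.31 (adjusted p = 0.0475).

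The mRNA of mt-Nd4 (ENSMUSG00000064363, chrM:10167-11544, plus strand) had 3779, 5208 and 6002 FPKM in 326E livers, 2864, 3117 and 3382 FPKM in vehicle livers and 6015, 3713 and 6755 FPKM in chow livers. In FPKM, all 326E libraries were above all vehicle libraries. All vehicle libraries were below all chow libraries, of which chow replicate 2 was the lowest. As a share of assigned reads, chow replicate 2 (66284 of 15165457) lay below vehicle replicate 1 (64573 of 14534744) and the other vehicle libraries. The difference was 0.66 ± 0.27 for 326E against vehicle, which did not pass (adjusted p = 0.153), and -0.77 ± 0.27 for vehicle against chow (adjusted p = 0.0463). A short gene that overlaps it, mt-Nd4l (ENSMUSG00000065947, chrM:9877-10173, plus strand), had 103, 274 and 229 FPKM with 326E, 232, 80.3 and 260 FPKM with vehicle and 173, 90.4 and 206 FPKM on chow. The groups overlapped throughout, with 1 low library in each. It was the only mRNA with a positive difference between vehicle and chow, 0.19 ± 0.52 (adjusted p = 0.795), and its 326E difference was 0.14 ± 0.52 (adjusted p = 0.888).

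For mt-Nd3 (ENSMUSG00000064360, chrM:9459-9806, plus strand) the 326E libraries lay close together at 85.5, 81.1 and 78.5 FPKM, the vehicle libraries had 59.5, 162 and 61.2 FPKM and the chow libraries 134, 98.3 and 121 FPKM. Vehicle replicate 2 was above all other libraries. The differences were -0.04 ± 0.34 for 326E against vehicle (adjusted p = 0.951) and -0.47 ± 0.34 for vehicle against chow (adjusted p = 0.293), and without vehicle replicate 2 mt-Nd3 was called lower on the diet, at -0.94 (adjusted p = 0.00155). The longest mRNA, mt-Nd5 (ENSMUSG00000064367, chrM:11742-13565, plus strand), had 2831, 3664 and 4529 FPKM with 326E, 3663, 2757 and 3261 FPKM with vehicle and 5537, 3825 and 6380 FPKM on chow. Vehicle libraries were all below chow libraries in FPKM, but not as shares of assigned reads. The mt-Nd5 test of vehicle against chow did not pass (-0.68 ± 0.26, adjusted p = 0.0626). Its 326E difference was 0.17 ± 0.26 (adjusted p = 0.707).

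The one mRNA gene on the minus strand is mt-Nd6 (ENSMUSG00000064368, chrM:13552-14070). It had 2311, 3101 and 4353 FPKM in 326E livers, 4768, 3070 and 3130 FPKM in vehicle livers and 5213, 3334 and 6298 FPKM in chow livers, with overlap between all groups. Its differences were -0.18 ± 0.32 for 326E against vehicle (adjusted p = 0.751) and -0.42 ± 0.32 for vehicle against chow (adjusted p = 0.333). Its last 14 bases are the reverse complement of the last 14 of mt-Nd5, in capitals below (chrM:13526-13565 and chrM:13552-13591). The strand setting of the counting is not given in the sources used here, so reads of mt-Nd6 and of RNA antisense to it cannot be told apart.
mt-Nd5: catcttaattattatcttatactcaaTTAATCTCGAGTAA
mt-Nd6: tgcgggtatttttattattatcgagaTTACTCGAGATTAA

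Complex III has 1 subunit encoded here, cytochrome b. Its mRNA, mt-Cytb (ENSMUSG00000064370, chrM:14145-15288, plus strand), had 9131, 10766 and 11448 FPKM in 326E livers, 5855, 6688 and 8119 FPKM in vehicle livers and 12901, 9874 and 12901 FPKM in chow livers. Vehicle libraries were below all libraries of the other groups, and 326E and chow libraries overlapped. The difference was 0.61 ± 0.23 for 326E against vehicle (adjusted p = 0.119) and -0.79 ± 0.23 for vehicle against chow (adjusted p = 0.0213).

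Complex IV, cytochrome c oxidase, takes its 3 core subunits from this genome. The most abundant of all the mRNAs, mt-Co1 (ENSMUSG00000064351, chrM:5328-6872, plus strand), had 11552, 14072 and 14414 FPKM with 326E, 10669, 11166 and 13770 FPKM with vehicle and 23043, 18012 and 22362 FPKM on chow. In FPKM both CDAA-HFD groups lay below all chow libraries and overlapped with each other. As a share of assigned reads, mt-Co1 overlapped between 326E and chow libraries. Its difference was 0.17 ± 0.23 for 326E against vehicle (adjusted p = 0.674), -0.83 ± 0.23 for vehicle against chow (adjusted p = 0.019) and -0.66 ± 0.23 for 326E against chow (adjusted p = 0.0653). For mt-Co2 (ENSMUSG00000064354, chrM:7013-7696, plus strand) the values were 279, 327 and 536 FPKM with 326E, 198, 242 and 204 FPKM with vehicle and 362, 272 and 383 FPKM on chow. Vehicle libraries were the lowest 3 in FPKM. As a share of assigned reads, mt-Co2 overlapped between vehicle and chow libraries. It differed by 0.77 ± 0.24 between 326E and vehicle (adjusted p = 0.0721) and by -0.65 ± 0.24 between vehicle and chow (adjusted p = 0.058).

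The copy of mt-Co2 on chromosome 1, Gm28661, was called in both comparisons. It had 258, 273 and 304 FPKM in 326E livers, 189, 172 and 174 FPKM in vehicle livers and 332, 254 and 366 FPKM in chow livers, a difference of 0.63 ± 0.15 for 326E against vehicle (adjusted p = 0.028) and -0.81 ± 0.15 for vehicle against chow (adjusted p = 0.00244). Over the 7 copies, 1 was higher and 0 lower with 326E against vehicle, and 0 were higher and 2 lower (Gm28661 and Gm28438) in vehicle against chow. Among all genes, 4.96% were called higher and 6.5% lower with 326E, and 20.8% higher and 20.8% lower on the diet. For mt-Co3 (ENSMUSG00000064358, chrM:8607-9390, plus strand) the libraries gave 317, 214 and 322 FPKM with 326E, 256, 120 and 150 FPKM with vehicle and 419, 172 and 929 FPKM on chow. The chow libraries spread over the ranges of both other groups. Its differences were 0.75 ± 0.54 for 326E against vehicle (adjusted p = 0.401) and -1.28 ± 0.54 for vehicle against chow (adjusted p = 0.0843).

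The ATP synthase, which makes ATP from the proton gradient, has 2 subunits encoded here. The mRNA of mt-Atp6 (ENSMUSG00000064357, chrM:7927-8607, plus strand) had 465, 357 and 749 FPKM in 326E livers, 303, 196 and 204 FPKM in vehicle livers and 942, 292 and 1206 FPKM in chow livers. All 326E libraries were above all vehicle libraries, and chow replicate 2 lay within the vehicle range. With 1.12 ± 0.50 it had the highest 326E difference among the mRNAs, which did not pass (adjusted p = 0.18), and with -1.59 ± 0.50 the lowest diet difference (adjusted p = 0.03). The 5 mRNAs with over 90% of stretches shared, mt-Atp6 among them, had standard errors of 0.24 to 0.54, against 0.21 to 0.37 for the other 8. For mt-Atp8 (ENSMUSG00000064356) the libraries gave 6.1, 5.15 and 7.39 FPKM with 326E, 8.69, 1.93 and 2.85 FPKM with vehicle and 4.94, 4.54 and 4.46 FPKM on chow. Vehicle replicate 1 was above and the other vehicle libraries below all the rest, and neither 326E against vehicle (0.58 ± 0.37, adjusted p = 0.334) nor vehicle against chow (-0.24 ± 0.37, adjusted p = 0.633) passed. Without vehicle replicate 1, mt-Atp8 was called higher with 326E at 1.09 (adjusted p = 0.0105) and lower on the diet at -0.75 (adjusted p = 0.00831).

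Ratios within a library do not depend on how libraries were scaled. The ratio of mt-Cytb to mt-Co1 was 0.79, 0.765 and 0.794 in 326E livers, against 0.549, 0.599 and 0.59 in vehicle livers and 0.56, 0.548 and 0.577 in chow livers. The ratio was thus higher in each 326E library than in any other library, while vehicle and chow overlapped. Cytochrome b reads made up 18.4% to 20.3% of the mitochondrial mRNA reads in 326E livers, 13.9% to 17.1% in vehicle livers and 14.8% to 16.7% in chow livers. Likewise mt-Nd4 made up 10.1% to 11.6% with 326E, 8.17% to 9.24% with vehicle and 7.59% to 9.36% on chow. Of the 13 mRNAs, these are the 2 whose share of the mRNA reads was higher in every 326E library than in every vehicle and every chow library. These ratios were chosen after the values were seen and were not tested.

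The rRNAs are the RNA of the mitochondrial ribosome, mt-Rnr1 the 12S RNA of its small subunit and mt-Rnr2 the 16S RNA of its large subunit. The 16S RNA, mt-Rnr2 (ENSMUSG00000064339, chrM:1094-2675, plus strand), had 219, 212 and 219 FPKM in 326E livers, 632, 452 and 636 FPKM in vehicle livers and 799, 717 and 945 FPKM in chow livers. No group overlapped with another in FPKM, and 326E libraries were the lowest and closest together. As a share of assigned reads, mt-Rnr2 overlapped between vehicle and chow libraries. It had 16367 of 14534744 reads in vehicle replicate 1 and 14699 of 15165457 in chow replicate 2. It was lower with 326E than with vehicle by -1.38 ± 0.17 (adjusted p = 0.00249), lower in vehicle than in chow by -0.52 ± 0.17 (adjusted p = 0.0325) and lower with 326E than in chow by -1.90 ± 0.17 (adjusted p = 0.000144). The 326E call held in 23 of 23 alternatives, with adjusted p from 0.000687 to 0.0478. The diet call was lost in 9 of 23, among them scaling to total assigned reads (-0.13 ± 0.14, adjusted p = 0.509).

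The 12S RNA, mt-Rnr1 (ENSMUSG00000064337, chrM:70-1024, plus strand), had 246, 222 and 236 FPKM with 326E, 393, 307 and 444 FPKM with vehicle and 592, 650 and 883 FPKM on chow, again with no overlap. Its difference was -0.68 ± 0.19 for 326E against vehicle (adjusted p = 0.047), -0.88 ± 0.19 for vehicle against chow (adjusted p = 0.00488) and -1.57 ± 0.19 for 326E against chow (adjusted p = 0.000584). The call for 326E against vehicle was lost in 11 of 23 alternatives, with adjusted p from 0.0092 to 0.456, among them those without any one 326E library, without vehicle replicate 1 or 3 and without chow replicate 1 or 2, while the difference stayed negative, from -0.83 to -0.39. The rRNAs had 3444 to 17341 reads per library and gene, and no 100-base stretch of either occurs in nuclear transcripts. Stretches around the longest run of A in each rRNA, in capitals, are shown because the libraries were selected on oligo(dT) (mt-Rnr1 chrM:679-738 and mt-Rnr2 chrM:1462-1521, plus strand).
mt-Rnr1: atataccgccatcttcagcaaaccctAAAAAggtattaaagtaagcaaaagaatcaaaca
mt-Rnr2: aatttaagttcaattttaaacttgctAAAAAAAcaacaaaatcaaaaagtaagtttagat
The longest runs are 5 and 7 bases, and those of the 13 mRNAs are 3 to 8 bases. Whether tail length or internal runs of A bear on the recovery of these RNAs was not tested.

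**Figure D4:**
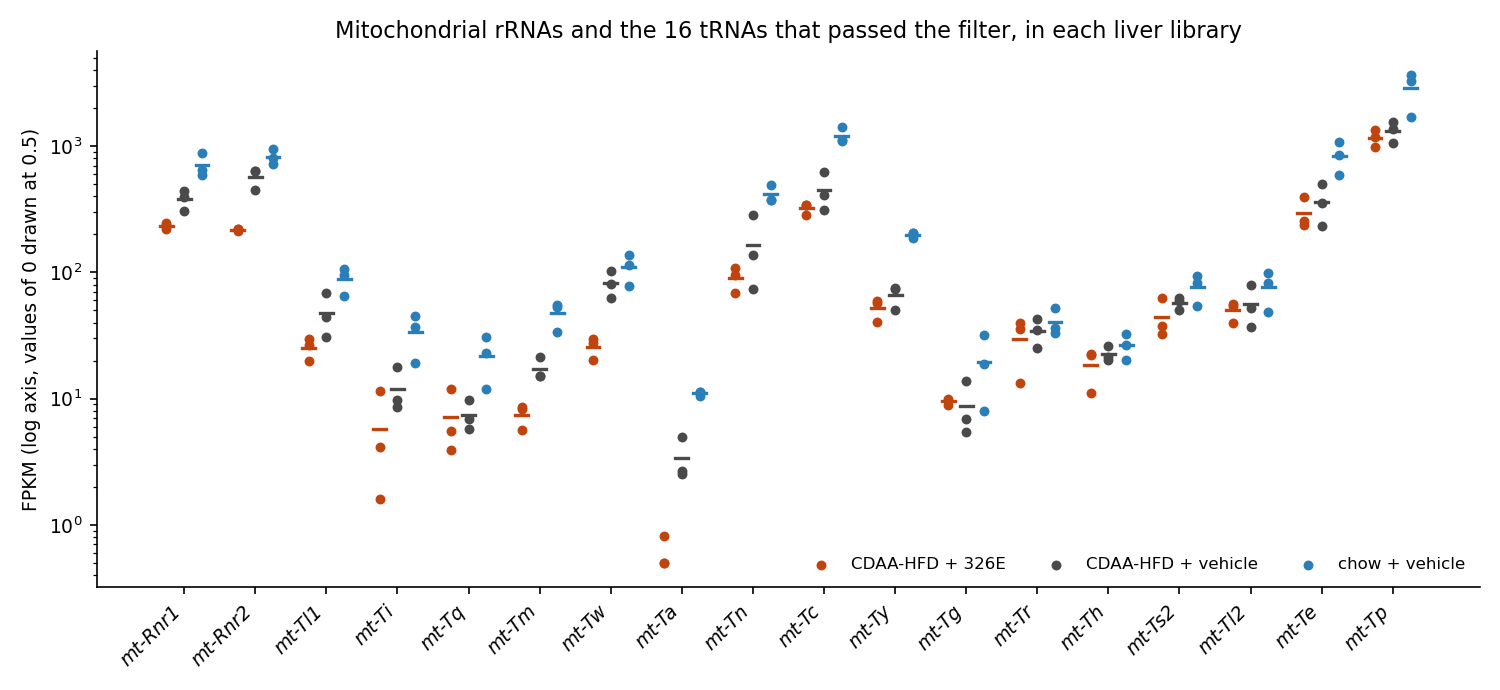
FPKM (log axis, values of 0 drawn at 0.5) of the 2 mitochondrial rRNAs and the 16 tRNAs that passed the filter, in genome order. Points are libraries and lines group means, with 326E left, vehicle in the middle and chow right. On these deposited values the groups do not overlap for either rRNA. The tRNAs mt-Tl1, mt-Tm, mt-Tw and mt-Ta are lower in all 326E libraries than in all vehicle libraries, and mt-Tl1 was not called.

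Set against the mRNAs of the same library, the summed rRNA level was lower with 326E. Summed rRNA FPKM was 1.12%, 0.833% and 0.781% of summed mRNA FPKM in 326E livers, against 2.55%, 2.01% and 2.47% in vehicle livers and 1.87%, 2.55% and 2.24% in chow livers. Vehicle and chow livers overlapped in this ratio, and no 326E library reached either. Within the rRNAs, the ratio of mt-Rnr2 to mt-Rnr1 was 0.89, 0.955 and 0.929 with 326E, 1.61, 1.47 and 1.43 with vehicle and 1.35, 1.1 and 1.07 on chow. No group overlapped with another in this ratio, which was highest in vehicle livers and lowest in 326E livers. Both ratios were looked at after the values were seen and were not tested.

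**Figure D5:**
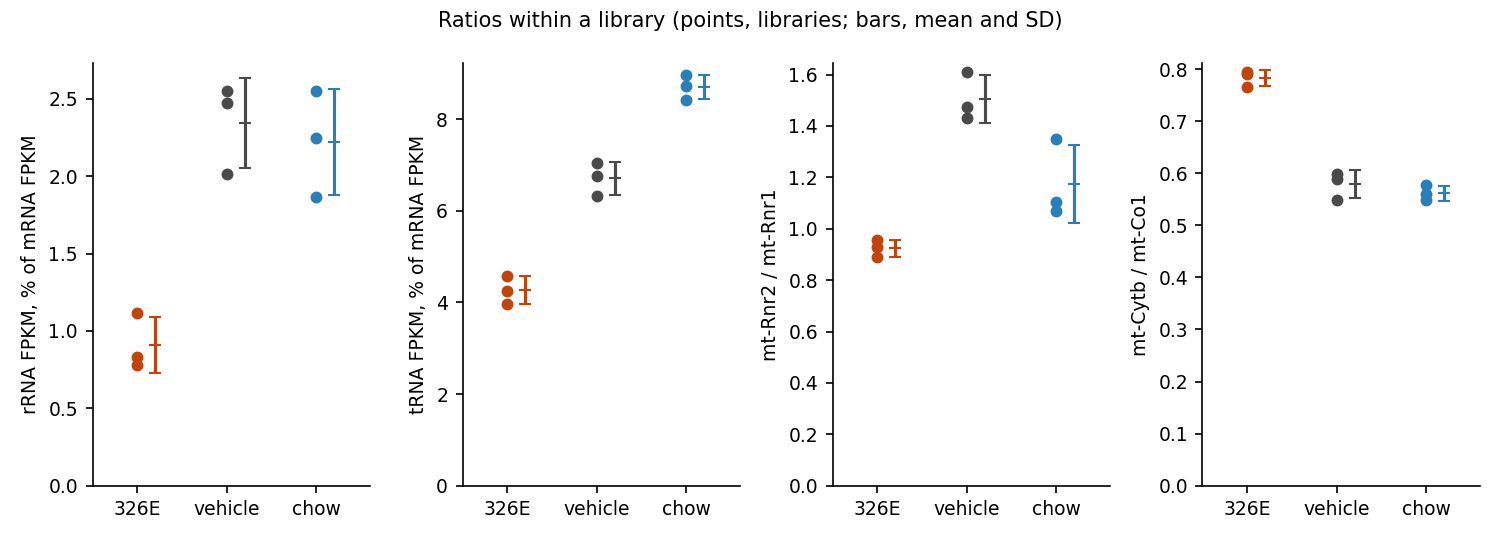
Ratios within each library for 326E (left), vehicle (middle) and chow (right), as summed rRNA and summed tRNA FPKM in percent of summed mRNA FPKM, mt-Rnr2 over mt-Rnr1 and mt-Cytb over mt-Co1. Points are libraries, bars mean and SD, n = 3. The 326E libraries stand apart from both other groups in all 4 panels, below them in the first 3 and above them in the last.

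The tRNAs carry the amino acids to the mitochondrial ribosome, and mt-Ta, mt-Tm and mt-Tw serve alanine, methionine and tryptophan. A tRNA gene here is 59 to 75 bases long, shorter than the 370 to 420 bp fragments selected, so a read assigned to one came from a fragment that reaches into its neighbours. Against vehicle, 3 of 16 tRNAs were lower with 326E and 0 higher, with 15 of 16 differences negative. The tRNA for tryptophan, mt-Tw, had 20.3, 29.7 and 27.4 FPKM in 326E livers, 102, 62.4 and 80.6 FPKM in vehicle livers and 136, 114 and 77.4 FPKM in chow livers. Its 326E libraries were below all others, with -1.61 ± 0.25 against vehicle (adjusted p = 0.00598), while vehicle and chow overlapped (-0.41 ± 0.25, adjusted p = 0.221). The tRNA for methionine, mt-Tm, had 8.2, 5.61 and 8.55 FPKM with 326E, 15.1, 21.4 and 15.1 FPKM with vehicle and 52.8, 33.6 and 55.4 FPKM on chow. Its groups did not overlap, with -1.11 ± 0.23 for 326E against vehicle (adjusted p = 0.0174) and -1.39 ± 0.23 for vehicle against chow (adjusted p = 0.00128). The 326E call for mt-Tm was lost in 3 of 23 alternatives, among them voom (adjusted p = 0.0888) and the one without 326E replicate 2.

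The tRNA for alanine rested on few reads. In all 3 libraries together, mt-Ta had 1 read with 326E, 13 with vehicle and 28 on chow. The ratio of reads, scaled to library size, was 0.0813 for 326E against vehicle (95% exact interval 0.00191 to 0.542, counting error only) and 0.317 for vehicle against chow (0.151 to 0.633). In 326E replicates 2 and 3 mt-Ta had 0 FPKM, so it passed the filter only through the vehicle and chow libraries, where it was higher. It was called in both comparisons (adjusted p = 0.00508 and adjusted p = 0.00196). The sequences of these 3 and of mt-Tp, the tRNA with the highest level, have the anticodon in capitals (mt-Tw chrM:4950-5016 and mt-Tm chrM:3845-3913, plus strand, mt-Ta chrM:5018-5086 and mt-Tp chrM:15356-15422, minus strand).
mt-Tw: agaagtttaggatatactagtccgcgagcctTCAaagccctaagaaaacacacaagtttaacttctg
mt-Tm: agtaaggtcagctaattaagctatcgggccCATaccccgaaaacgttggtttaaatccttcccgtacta
mt-Ta: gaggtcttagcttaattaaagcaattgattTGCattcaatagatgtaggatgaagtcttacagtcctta
mt-Tp: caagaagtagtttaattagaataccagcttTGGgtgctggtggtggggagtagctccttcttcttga
On the genome mt-Tm lies just before mt-Nd2 and mt-Tw just after it, next to mt-Ta on the other strand.

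The highest 3 tRNAs, mt-Tp for proline, mt-Tc for cysteine and mt-Te for glutamate, all lie on the minus strand. The proline tRNA had 988, 1174 and 1343 FPKM in 326E livers, 1546, 1375 and 1064 FPKM in vehicle livers and 3307, 1690 and 3653 FPKM in chow livers. It was lower in vehicle than in chow livers by -1.06 ± 0.30 (adjusted p = 0.0192) and differed by -0.18 ± 0.30 between 326E and vehicle (adjusted p = 0.737). For mt-Tc the libraries gave 341, 287 and 339 FPKM with 326E, 312, 411 and 622 FPKM with vehicle and 1103, 1125 and 1407 FPKM on chow, and for vehicle against chow the difference was -1.48 ± 0.24 (adjusted p = 0.00117). In FPKM, every CDAA-HFD library was below every chow library for both tRNAs. As shares of assigned reads this held for mt-Tc, while vehicle and chow libraries overlapped for mt-Tp. For mt-Te the difference was -1.23 ± 0.33 in vehicle against chow (adjusted p = 0.0153) and -0.26 ± 0.33 in 326E against vehicle (adjusted p = 0.651).

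The 8 tRNA genes on the minus strand, of which 7 passed the filter, held 89.4% to 91.2% of tRNA reads in 326E livers, 86.5% to 88.9% in vehicle livers and 90.5% to 92.5% in chow livers. The strand here is that of the gene. As the strand setting of the counting is not given, reads of RNA from the opposite strand cannot be told apart. In vehicle against chow, the 9 tRNAs called lower were mt-Ta, mt-Tc, mt-Te, mt-Tn, mt-Tp, mt-Tq and mt-Ty, which are all 7 of the minus strand, and mt-Tl1 and mt-Tm of the plus strand. The remaining 7 (mt-Ti, mt-Tw, mt-Tg, mt-Tr, mt-Th, mt-Ts2 and mt-Tl2) did not pass. The tyrosine tRNA mt-Ty had the smallest adjusted p, at 40.5 to 59.7 FPKM with 326E, 50.2 to 75.4 FPKM with vehicle and 187 to 206 FPKM on chow, a difference of -1.59 ± 0.19 for vehicle against chow (adjusted p = 0.000244). Scaled to total assigned reads, 6 of the 16 tRNAs were called lower, and without chow replicate 3 there were 5. In 326E against chow, mt-Ti and mt-Tw joined the same 9. Summed tRNA FPKM was 3.98% to 4.59% of summed mRNA FPKM in 326E livers, 6.33% to 7.04% in vehicle livers and 8.42% to 8.96% in chow livers, with no overlap between groups.

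Nuclear genes for the upkeep of this genome were read from the same fit. The counts below stand beside 4.96% of all genes called higher and 6.5% lower with 326E, and 20.8% called higher and 20.8% lower on the diet. Scaled to total assigned reads, the diet calls were 1 higher and 2 lower for transcription, 1 higher and 2 lower for RNA processing and 0 higher and 3 lower for translation. On that scale replication had 3 higher and 1 lower (median 0.08, against -0.20 as deposited). Biogenesis regulators had 3 higher and 1 lower (median 0.16, against -0.09). All 13737 genes shifted too, to 5074 higher and 961 lower, with a median of 0.25 against -0.04 as deposited. Of 10 genes of mitochondrial transcription tested, 3 were higher and 0 lower with 326E against vehicle, and 0 higher and 5 lower in vehicle against chow (median 0.21 and -0.44). Tefm, which keeps the mitochondrial RNA polymerase elongating, had 7.24 ± 0.852 FPKM in 326E livers, 4.68 ± 0.857 in vehicle livers and 9.97 ± 0.971 in chow livers (SD, n = 3 each). It was higher with 326E (0.54 ± 0.13, adjusted p = 0.0334) and lower on the diet (-0.96 ± 0.13, adjusted p = 0.000583). Mterf2, of a family of mitochondrial nucleic acid binding proteins, was higher with 326E by 0.69 ± 0.18 (adjusted p = 0.0421), and Mterf4 of the same family was lower on the diet by -0.70 ± 0.09 (adjusted p = 0.000345). The polymerase itself, Polrmt, was lower on the diet (-0.52 ± 0.09, adjusted p = 0.00239), as were Tfam, which packages the DNA and starts transcription (-0.47 ± 0.16, adjusted p = 0.0408), and its partner Tfb2m (-0.41 ± 0.12, adjusted p = 0.0249). With 326E against vehicle the differences of these 3 were 0.13, 0.21 and 0.21, none past the threshold.

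Of 19 genes of mitochondrial DNA replication and nucleotide supply, 2 were higher and 0 lower with 326E, and 1 higher and 6 lower on the diet. The shares over all genes were 4.96% higher and 6.5% lower with 326E, and 20.8% higher and 20.8% lower on the diet. The replicative helicase Twnk had 6.25 to 6.7 FPKM in 326E livers, 3.11 to 5.08 in vehicle livers and 6.75 to 7.31 in chow livers, a difference of 0.60 ± 0.13 with 326E (adjusted p = 0.0229) and -0.72 ± 0.13 on the diet (adjusted p = 0.0025). Thymidine phosphorylase, Tymp, was higher with 326E by 1.23 ± 0.12 (adjusted p = 0.00132) and lower on the diet by -1.78 ± 0.12 (adjusted p = 1.64e-05). The one gene higher on the diet was Slc25a36, a carrier of pyrimidine nucleotides (0.87 ± 0.13, adjusted p = 0.000687). The DNA polymerase Polg did not pass in either comparison (0.10 ± 0.11 and -0.21 ± 0.11).

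Of 29 genes of RNA processing, stability and decay, 1 was higher and 0 lower with 326E, and 0 higher and 14 lower on the diet. Over all genes the shares were 4.96% higher and 6.5% lower with 326E, and 20.8% higher and 20.8% lower on the diet. The 1 was Trit1, which modifies tRNAs (0.35 ± 0.10, adjusted p = 0.0467), and the largest falls on the diet were those of the ribonuclease Lactb2 (-1.34 ± 0.16, adjusted p = 0.000249) and of Hsd17b10, a subunit of the RNase P that frees the tRNAs (-1.08 ± 0.13, adjusted p = 0.000231). Neither Lrpprc, which stabilises the mRNAs (-0.04 ± 0.17 with 326E, -0.36 ± 0.17 on the diet), nor the poly(A) polymerase Mtpap (0.06 ± 0.14 and -0.20 ± 0.14) passed, and Slirp, the partner of Lrpprc, did not reach the filter. Of 14 translation factors, 4 were higher and 0 lower with 326E, and 0 higher and 10 lower on the diet. Taco1, an activator of the translation of mt-Co1, was higher with 326E by 0.67 ± 0.12 (adjusted p = 0.0107) and lower on the diet by -0.99 ± 0.12 (adjusted p = 0.000283), and the initiation factor Mtif3 by 0.45 ± 0.11 (adjusted p = 0.0294) and -0.90 ± 0.11 (adjusted p = 0.000243).

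Of 11 regulators of mitochondrial biogenesis, 0 were higher and 1 lower with 326E, and 2 higher and 5 lower on the diet. Among all genes the shares were 4.96% higher and 6.5% lower with 326E, and 20.8% higher and 20.8% lower on the diet. The 1 was the coactivator Ppargc1a, with 2.05, 2.23 and 2.69 FPKM in 326E livers, 3.13, 4.75 and 4.86 FPKM in vehicle livers and 1.84, 2.78 and 3.15 FPKM in chow livers. It was lower with 326E (-0.64 ± 0.18, adjusted p = 0.049) and higher on the diet (0.55 ± 0.18, adjusted p = 0.0346). The transcription factors Nrf1 and Esrra did not pass in either comparison, with differences of 0.02 and 0.02 for 326E and -0.03 and 0.06 for the diet, and Gabpa was lower on the diet (-0.68 ± 0.10, adjusted p = 0.000825).

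Nuclear subunits of the complexes that these mRNAs serve were read against 4.96% of all genes called higher with 326E and 20.8% called lower on the diet. With 326E against vehicle, 3 of 38 complex I subunits were higher, 0 of 9 of complex III, 0 of 12 of complex IV and 1 of 17 of the ATP synthase, with 0 lower in each and medians of 0.26, 0.35, 0.25 and 0.21. Complex II, which has no subunit in the mitochondrial genome, had 0 of 4 called and a median of 0.14. In vehicle against chow, 29 of 38, 9 of 9, 6 of 12 and 12 of 17 were lower and 0 higher, as were 4 of 4 of complex II, with medians of -0.55, -0.71, -0.45, -0.55 and -0.59. Scaled to total assigned reads, 3, 2, 1, 0 and 1 were lower and 0, 0, 1, 1 and 0 higher. The medians were then -0.18, -0.32, -0.05, -0.16 and -0.20, against 0.25 over all genes. Of all 13737 genes, 5074 were higher and 961 lower on that scale. With 326E, the complex I subunits Ndufab1 (0.63, adjusted p = 0.00554) and Ndufb11 (0.56, adjusted p = 0.0428) and the ATP synthase subunit Atp5g3 (0.45, adjusted p = 0.031) were higher. On the diet, Ndufa3 (-1.08, adjusted p = 0.0233) and Ndufv3 (-1.02, adjusted p = 0.00151) of complex I, Uqcr11 of complex III (-0.92, adjusted p = 0.00435) and Cox7b of complex IV (-0.84, adjusted p = 0.00313) were among those lower. The mRNAs from the mitochondrial genome had a median of -0.68 on the deposited scale and -0.28 on that one.

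Markers of some other cell types differed between the groups. Beside the counts below, 4.96% of all genes were called higher and 6.5% lower with 326E, and 20.8% higher and 20.8% lower on the diet. Of the 12 hepatocyte markers, 0 were called with 326E against vehicle, and 0 were higher and 6 lower in vehicle against chow, with a median of -0.74 beside -0.68 for the mitochondrial mRNAs. Scaled to total assigned reads, 0 were higher and 1 lower with 326E, and 1 higher and 4 lower on the diet. The diet median was then -0.34, beside -0.28 for the mitochondrial mRNAs and 0.25 over all genes. Of all genes 584 were then higher and 933 lower with 326E, and 5074 higher and 961 lower on the diet. Of 8 endothelial markers, 0 were called with 326E and 3 were higher and 1 lower on the diet (median 0.02), with sums of 66.3 to 72.1 FPKM in 326E livers, 55.6 to 68.2 in vehicle livers and 51.8 to 61.5 in chow livers. Scaled to total assigned reads, 0 were called with 326E, and 4 were higher and 0 lower on the diet (median 0.36). Summed levels of 10 macrophage markers were 516 to 902 FPKM in 326E livers, 949 to 1444 in vehicle livers and 164 to 180 in chow livers, and those of 10 stellate cell and fibroblast markers were 161 to 192, 248 to 362 and 52.1 to 71. Among the macrophage markers, Itgam, Ccr2, Trem2 and Gpnmb were under 0.5 FPKM in every chow library. In both other groups, all 10 reached 0.5 FPKM in some library. Of 12 immediate early genes tested, which respond fast to stress of a tissue, 8 were lower with 326E against vehicle and 10 higher in vehicle against chow. The whole list summed to 81.2 to 102 FPKM in 326E livers, 150 to 1110 in vehicle livers and 52.3 to 90.1 in chow livers. The part of cell make-up and of sampling in the mitochondrial values was not tested. Vehicle replicates 1 and 3 were the 2 highest in immediate early genes. Leaving out both leaves 1 vehicle library, which is then assumed to vary like the libraries of the other groups. On that assumption the difference of 326E against vehicle was -1.06 for mt-Rnr2 (adjusted p = 0.0478) and -0.39 for mt-Rnr1 (adjusted p = 0.456).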

How the data were processed

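The authors deposited 1 table of FPKM values per gene, with gene lengths, for 9 mouse liver libraries from oligo(dT)-selected RNA. HISAT2, featureCounts and build mm10 are named in the submitters' processing notes, and strand and multi-match settings are not given in the sources used here. FPKM times length gave whole reads for 100% of values (tolerance 0.01), so total reads per library are known. With limma 3.58.1 in R 4.3.3, log2(FPKM + 1) was fitted over all 9 libraries with a variance trend (6 residual degrees of freedom) for genes reaching 0.5 FPKM in 3 or more libraries, with Benjamini-Hochberg adjustment per comparison. The fit was tested on simulated data. The pseudocount makes fold changes of low genes too small. Sequences are from GENCODE vM21 on GRCm38. Named were all mRNAs and rRNAs, the 3 tRNAs highest on average and those called, and from each nuclear list mainly the called genes with the largest changes, plus a few fixed regulators. Alternatives were pseudocounts of 0.1 and 5, other filters and scalings, other variance models, voom on the reads, the replicate block, protein-coding genes alone and leaving out libraries. The members and lists were chosen with earlier results of these data known. Intervals cover counting error only.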

Additional observations from a re-analysis of the deposited data

How the results depend on the processing

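Leaving out vehicle replicates 1 and 3 together leaves a vehicle group of 1 library, which is assumed to vary like the other groups, so those counts say little about stability. Of the single-gene values under the alternatives, 1934 kept their direction and their side of the threshold, 132 lost a call, 54 gained one and 58 changed sign. For 326E against vehicle, mRNA calls were 1 with no variance trend, with voom and without vehicle replicates 1 and 3, and ranged from 0 to 1 with single libraries left out (1 without vehicle replicate 1, mt-Atp8, and 1 without chow replicate 2, mt-Atp6). The tRNA calls were 1 without vehicle replicates 1 and 3. For vehicle against chow, mRNA calls were 0 with no filter, when scaled to total assigned reads or to reads outside the mitochondrial genome, and with quantile normalization, 2 from the 6 libraries alone and 1 without vehicle replicates 1 and 3, and ranged from 0 to 9 with single libraries left out. The tRNA calls were 5 with quantile normalization and without vehicle replicates 1 and 3, and ranged from 5 to 10. For 326E against chow, mRNA calls were 1 with a pseudocount of 5, a mean of at least 1 FPKM, no variance trend, array weights, voom, the 6 libraries alone and without vehicle replicates 1 and 3, and ranged from 0 to 1. The share of mRNAs differed by 2.01 points between 326E and vehicle and by 0.289 points between 326E and chow when taken from summed FPKM, against 1.23 and -0.548 from reads. The causes were not tested.

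Values that changed sign were as follows. For 326E against vehicle, quantile normalization gave mt-Nd1 -0.046 and mt-Nd2 -0.36, and leaving out vehicle replicates 1 and 3 gave mt-Tg -0.49 and mt-Nd6 0.036. For vehicle against chow, quantile normalization gave mt-Rnr2 0.28, mt-Nd1 0.36, mt-Nd2 0.31, mt-Nd4 0.18, mt-Nd5 0.20, mt-Nd6 0.52 and mt-Cytb 0.11. Total reads gave mt-Atp8 0.076, mt-Tr 0.15, mt-Th 0.17 and mt-Ts2 0.0027, reads outside the mitochondrial genome gave mt-Atp8 0.052, mt-Tr 0.12 and mt-Th 0.15, and leaving out vehicle replicates 1 and 3 gave mt-Nd3 0.47 and mt-Nd4l -0.87. For 326E against chow, total reads gave mt-Nd1 0.029, mt-Nd4 0.25 and mt-Cytb 0.18, and reads outside the mitochondrial genome 0.018, 0.24 and 0.17. Quantile normalization gave mt-Nd1 0.31, mt-Atp6 0.16, mt-Co3 0.061, mt-Nd4 0.62, mt-Nd5 0.23, mt-Nd6 0.19 and mt-Cytb 0.21, and array weights gave mt-Co2 -0.00013.

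With single libraries left out, 326E against vehicle ranged from -0.28 to 0.43 for mt-Nd3, -0.39 to 0.56 for mt-Nd4l, -0.42 to 0.038 for mt-Nd6, -0.54 to 0.012 for mt-Te, -0.031 to 0.57 for mt-Tg, -0.48 to 0.0051 for mt-Th, -0.38 to 0.16 for mt-Tl2, -0.54 to 0.16 for mt-Tq and -0.59 to 0.17 for mt-Tr. Vehicle against chow ranged from -0.75 to 0.11 for mt-Atp8 and -0.16 to 0.73 for mt-Nd4l, and 326E against chow from -0.15 to 0.32 for mt-Co2, -1.15 to 0.059 for mt-Co3, -0.38 to 0.071 for mt-Nd4 and -0.018 to 0.76 for mt-Nd4l.

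Libraries of the same number in different groups had correlations of deviations from their group means of -0.244 to 0.0236. Those of different numbers had -0.182 to 0.193. These values show no sign of pairing by number but cannot settle it, and the labels state no pairing. With the replicate block, tRNA calls for 326E against vehicle were 5, against 3. All genes called then numbered 1037 for 326E against vehicle, against 1574. They numbered 1030 with no filter, 961, 659 and 724 without 326E replicate 1, 2 and 3, and 879 without vehicle replicate 3. With the 1 vehicle library left without replicates 1 and 3 they numbered 322, and 3596 for vehicle against chow, against 5721.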
